A study of Oryza sativa with 3 samples.

Results

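Kinesins are motor proteins that hydrolyse ATP to walk along microtubules or to take microtubules apart, and plants hold an unusually large family of them. The genes described here are the rice kinesins of the KIN naming scheme, in which the number gives the subfamily and the letter the gene. Membership follows from the name and not from a cutoff on values: a symbol or synonym made of KIN, a number and a letter. The set was nonetheless chosen with earlier results of these data known. Of 35 genes with such a name, 32 had a probe set that the platform annotation pairs with 1 gene, among 17905 genes in all, and KIN12F, KIN14D and KIN14P had none. The rule leaves out KIN1 (PSS1), whose name has no letter, and KIN17, which is not a kinesin. The 32 genes fall into KIN4 with 1 gene, KIN5 with 2, KIN7 with 7, KIN8 with 1, KIN10 with 3, KIN12 with 2, KIN13 with 2 and KIN14 with 14.

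RNA came from shoot tips of Hitomebore, a japonica rice cultivar, and was hybridised to 3 Affymetrix expression arrays, 1 for each of the biological replicates 1, 2 and 3 of a single group named CK shoot. Seedlings had spent 2 days at 28 °C in darkness and about 48 h at 26 °C in a greenhouse with a day of 16 h. The labels do not say what CK stands for or how many seedlings a sample holds, and their protocol mentions 2 genotypes, of which 1 is used here. There is no control or treated group, so the arrays show which kinesins gave signal in the shoot tip and how closely the 3 samples matched for each gene. Every value below is a log2 probe set value after robust multi-array averaging by the authors. How bright a probe set is depends on its probes as well as on the RNA, so the values do not rank kinesins by RNA amount.

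In dividing plant cells, kinesins of the KIN5 and KIN14 subfamilies build and focus the spindle, which has no centrosome, and those of KIN7, KIN10 and KIN12 act in the phragmoplast, the array of microtubules that guides vesicles to the new cell plate. In elongating cells, KIN4 and KIN13 motors take part in cell elongation, wall deposition and organ shape. A shoot tip holds the meristem, young dividing leaf tissue and greener, older leaf tissue, so it can hold both kinds of cell. In a sample of mixed tissue, fewer cells of a type and less RNA per cell cannot be told apart.

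Nearly all of these kinesins gave signal above background in the shoot tip. A ceiling of background was taken on each array as its highest value among 17 Tag control probe sets, which match no rice transcript, and it was 4.98, 4.88 and 4.97 on replicates 1, 2 and 3. On all 3 arrays, 31 of 32 kinesins lay above it, against 81.3% of all genes. The median kinesin value was 8.68, 8.49 and 8.90 on the 3 arrays, where the median over all genes was 8.22, 8.25 and 8.37. Across the 32 kinesins, which share probe affinities between arrays and are not independent, Pearson's r between arrays lay between 0.991 and 0.994. Over all probe sets it lay between 0.993 and 0.996.

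**Figure D1:**
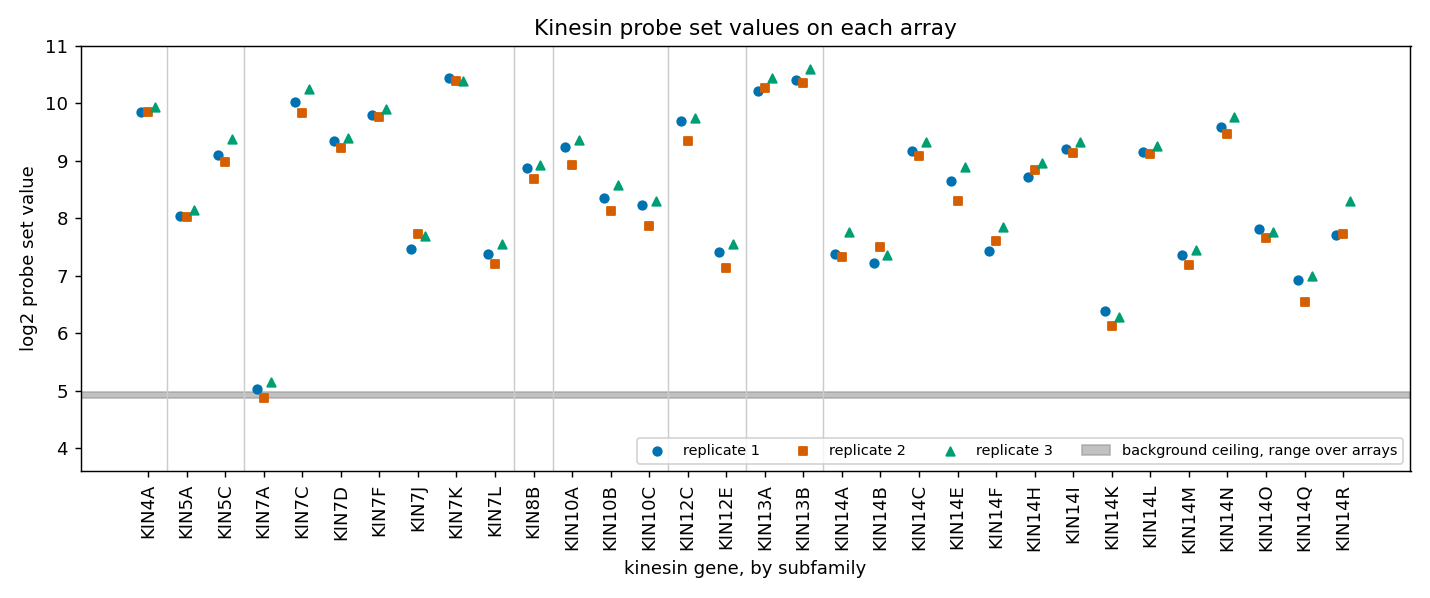
Log2 probe set value (vertical axis) of each of the 32 kinesins on the 3 arrays, with thin lines between subfamilies and a grey band from the lowest to the highest background ceiling, 4.88 to 4.98. KIN7A lies at the band and all other kinesins lie above it, and in most genes the square of replicate 2 is the lowest point.

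The exception was KIN7A (LOC4323990), also named DBS1 and NACK. In tobacco, NACK kinesins activate the MAP kinase cascade that lets the cell plate expand, and in rice the dbs1 mutant is a dwarf. KIN7A read 5.03, 4.87 and 5.14 on replicates 1, 2 and 3, just above the ceiling on replicates 1 and 3 and 0.01 below it on replicate 2. All of its values thus lay within 0.2 of background, and its mean was 5.01 with a 95% interval of 4.79 to 5.24 (limma, n = 3). A low value of 1 probe set bounds what these probes detected and not the amount of the RNA.

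Across the arrays, the kinesins kept a common order. In 23 of 32 genes (71.9%), replicate 2 was lowest, replicate 1 in the middle and replicate 3 highest, an order found in 23.8% of all genes. Replicate 2 was lowest for 26 kinesins, against 36.2% of all genes, and replicate 3 was highest for 27, against 49.9% of all genes. No kinesin was lowest on replicate 3, which was also the array least often lowest over all genes, in 3934 of 17905. The difference of replicate 2 from the mean of replicates 1 and 3 had a median of -0.21 over kinesins, which is 1.15-fold lower, and of -0.03 over all genes, and it ran from -0.47 for KIN14E to 0.21 for KIN14B. It was below 0 for 30 of 32 kinesins, against 58.0% of all genes. A difference below -0.20, a size chosen after the values were seen, was found for 17 kinesins. The shares were 14.3% of all genes and 14.8% of those above the ceiling on every array. That size lies next to the kinesins' own median of -0.21, so a kinesin count near the middle of the set follows from the choice. An array set against the others of its own group is no comparison of conditions, and these counts carry no test. The replicates described were also chosen with earlier results of these data known.

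Part of the order between arrays is shared by the whole table and depends on scaling. Among the 14556 genes above the ceiling on all arrays, 39.0% were lowest on replicate 2 and 52.5% highest on replicate 3. When all arrays were quantile normalized again, 23 kinesins were lowest on replicate 2, against 33.4% of all genes, and 20 were highest on replicate 3, against 43.4% of all genes. The median difference of replicate 2 was then -0.16 over kinesins and -0.01 over all genes. It was -0.26 with replicate 1 left out and -0.12 with replicate 3 left out. Relative to the median of genes of like mean level, taken in 10 equal bins, it was -0.15.

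**Figure D2:**
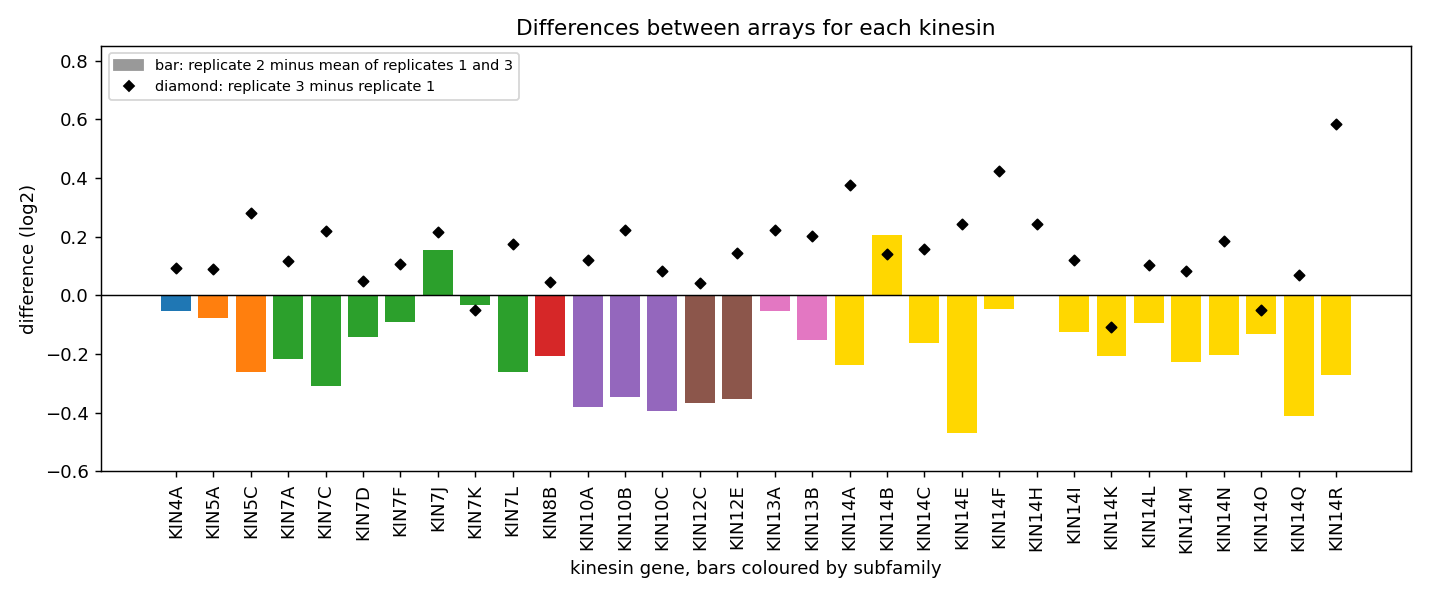
Difference in log2 value for each kinesin, with bars for replicate 2 minus the mean of replicates 1 and 3, coloured by subfamily, and black diamonds for replicate 3 minus replicate 1. The 5 bars of KIN10 and KIN12 lie between -0.39 and -0.35, and those of KIN14 run from -0.47 to 0.21. Above 0 lie 29 of 32 diamonds, and the same difference was above 0 in 11468 of 17905 genes.

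The 5 kinesins of KIN10 and KIN12 shared the common order on the arrays, which was found in 23.8% of all genes. KIN10A (LOC4331094) is STD1 of rice, a kinesin of the phragmoplast whose loss gives stemless dwarf seedlings, and its Arabidopsis relative PAKRP2 rides on vesicles there. It read 9.25, 8.93 and 9.37 on replicates 1, 2 and 3, lower on replicate 2 by 1.30-fold against the mean of the other arrays. KIN10B (LOC4335606) read 8.36, 8.12 and 8.58. KIN10C (LOC4339007) read 8.22, 7.87 and 8.31. In all 3 genes replicate 2 was lowest and replicate 3 highest, and the difference of replicate 2 lay between -0.39 and -0.35.

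KIN12 motors of Arabidopsis organise the midline of the phragmoplast and mark the site where the plate will join the wall. KIN12C (LOC4333349) read 9.70, 9.35 and 9.74 on replicates 1, 2 and 3, and KIN12E (LOC4344043) read 7.41, 7.13 and 7.55. Both were again lowest on replicate 2, by 0.37 and 0.35, while replicates 1 and 3 differed by 0.04 and 0.14. The median difference of replicate 2 was -0.37 over these 5 genes and -0.15 over the other 27 kinesins. That contrast was noticed in the values and was not tested. The other 27 ran from -0.47 to 0.21 and include KIN7, also placed in the phragmoplast above, with a median of -0.14. The SDs of the 5 genes lay between 0.21 and 0.23, where the median SD was 0.14 over kinesins and 0.12 over all genes.

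KIN5 motors are bipolar tetramers that slide antiparallel microtubules apart in the spindle. KIN5C (LOC9271005) read 9.11, 8.99 and 9.39 on replicates 1, 2 and 3. KIN5A (LOC9268593) read 8.05, 8.02 and 8.14, within 0.12 on all arrays. Both shared the common order, with a difference of replicate 2 of -0.26 for KIN5C and -0.08 for KIN5A.

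Kinesins of cell elongation and organ shape, in KIN4 and KIN13, had SDs of 0.06 to 0.13. The median SD was 0.14 over kinesins and 0.12 over all genes. SDs in or below that range were also found in other subfamilies, such as 0.06 for KIN5A, 0.03 for KIN7K and 0.08 for KIN14L. KIN4A (LOC4346402), also GDD1 and BC2, is known from dwarf rice with brittle stems, in which cellulose microfibrils are laid down out of order. It read 9.85, 9.85 and 9.95 on replicates 1, 2 and 3, and replicate 2 differed from the others by -0.05. KIN13A (LOC4337845) is SRS3, the gene of a small and round seed mutant, and belongs to the subfamily with the motor in the middle of the protein, whose animal members take microtubules apart. It read 10.22, 10.27 and 10.44, lowest on replicate 1, and its other probe set read 9.53, 9.35 and 9.37, highest there. KIN13B (LOC4326684) read 10.40, 10.35 and 10.60. Its only probe set ends in _x_at, a suffix for probes that can bind other transcripts too.

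The KIN8 subfamily holds motors that shorten microtubules from their plus ends in yeast and animals. Its single gene here, KIN8B (LOC4334272), read 8.88, 8.69 and 8.92 on replicates 1, 2 and 3 from an _x_at probe set. The other probe set of KIN8B read 3.82, 4.11 and 4.28, below the ceiling on all arrays. The signal of KIN8B therefore rests on a probe set that can bind other transcripts, and the 2 disagree on whether the gene lies above background.

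KIN7 is the subfamily to which animal CENP-E is related, and it has grown in number in land plants. Besides KIN7A, its 6 genes lay well above the ceiling. KIN7K (LOC4349100) read 10.45, 10.39 and 10.40 on replicates 1, 2 and 3, and its SD of 0.03 was the lowest of all 32 kinesins. KIN7C (LOC4330142) read 10.02, 9.83 and 10.24, with the highest SD of the subfamily, 0.21. KIN7J (LOC4347645) went the other way, with 7.47, 7.74 and 7.69, highest on replicate 2 and lowest on replicate 1. For KIN7D, also K16, KIN7F, also K23, and KIN7L, the common order held, with differences of replicate 2 of -0.14, -0.09 and -0.26. Within this 1 subfamily, replicate 2 was thus lowest in 6 of 7 genes, against 36.2% of all genes. The differences ran from -0.31 to 0.15.

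Many KIN14 motors walk toward the minus end of microtubules, opposite to other kinesins, and flowering plants lack the minus-end motor dynein of animals. All 14 genes exceeded the ceiling on every array, against 81.3% of all genes, with means between 6.26 and 9.61. Replicate 2 was lowest in 10 of them, against 36.2% of all genes. Replicate 1 was lowest in 4, against 7006 of 17905 genes, and replicate 3 was highest in 11, against 49.9% of all genes. The differences of replicate 2 had a median of -0.18 in this subfamily.

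The largest differences of replicate 2 among all kinesins were in this subfamily. KIN14E (LOC4331382) read 8.64, 8.29 and 8.89 on replicates 1, 2 and 3, and was 1.39-fold lower on replicate 2. KIN14Q (LOC4352456), the actin-binding kinesin KCH1, joins microtubules to actin filaments through a calponin homology domain and helps place the nucleus. It read 6.93, 6.55 and 7.00, 1.33-fold lower on replicate 2, and replicates 1 and 3 differed by 0.07.

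Other KIN14 genes were also highest on replicate 3. KIN14R (LOC4352796) had the highest SD of all kinesins, 0.33, and read 7.71, 7.73 and 8.30 on replicates 1, 2 and 3, so that replicates 1 and 2 agreed and replicate 3 was higher than replicate 1 by 0.58. KIN14A (LOC4327702) read 7.38, 7.33 and 7.76, also with replicate 3 apart from the other arrays, but lowest on replicate 2 where KIN14R was lowest on replicate 1. KIN14F (LOC4332578) read 7.43, 7.60 and 7.86, and KIN14H (LOC4337093) read 8.73, 8.85 and 8.97, both lowest on replicate 1 with replicate 2 between the other arrays.

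A few KIN14 genes departed from the common order in other ways. KIN14B (LOC9267695) read 7.23, 7.50 and 7.37 on replicates 1, 2 and 3, and with KIN7J it was 1 of 2 kinesins highest on replicate 2. KIN14O (LOC9267314) read 7.82, 7.66 and 7.77, highest on replicate 1. KIN14K (LOC4339353) read 6.38, 6.12 and 6.28, also highest on replicate 1, from an _x_at probe set. Of its other probe sets, an _x_at one read 5.76, 5.65 and 5.95 and the last one 3.56, 3.41 and 3.62, below the ceiling on all arrays. Replicate 2 was lowest in each of the 3, by 0.21, 0.20 and 0.18 against the mean of the other arrays.

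The remaining KIN14 genes followed the common order, as did KIN14E, KIN14Q and KIN14A above. KIN14N (LOC4342193) had the highest mean of the subfamily and read 9.58, 9.47 and 9.77 on replicates 1, 2 and 3. KIN14I (LOC4337322) is KCBP, a kinesin that calmodulin binds and switches off in the presence of calcium and that shapes leaf hairs in Arabidopsis. It read 9.21, 9.14 and 9.33. In KIN14C, KIN14L and KIN14M, replicate 2 differed from the others by -0.16, -0.10 and -0.23.

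No kinesin varied beyond the general spread of probe sets in a test. limma's test of each variance over its prior, adjusted over 57258 probe sets, called 0 of 32 kinesins at 0.05, as it called 0.00% of all probe sets, and the lowest adjusted p of a kinesin was 0.94. At an unadjusted p under 0.05 it called 0 kinesins, against 2.43% of all probe sets, and KIN14E had the lowest p, 0.086 (limma). On simulated data, the unadjusted test found 47.5% of probe sets with 3 times their spread and 92.0% of those with 10 times, but the adjusted one found 0% and 1.5%, so it has little power with 3 arrays. The kinesin SDs, from 0.03 to 0.33, stayed inside the cloud of all genes. Over kinesins, the median absolute difference between replicates 1 and 2 was 0.16, that between 1 and 3 was 0.13 and that between 2 and 3 was 0.26. Over all probe sets these medians were 0.12, 0.15 and 0.14.

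**Figure D3:**
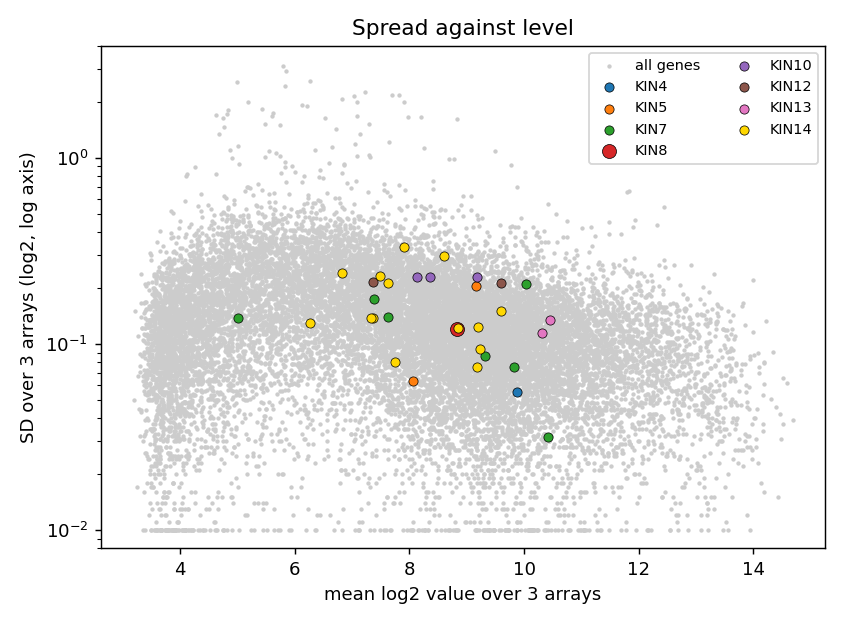
SD over the 3 arrays (vertical log axis, SDs under 0.01 drawn at 0.01) against the mean log2 value (horizontal axis), with all 17905 genes as grey points and the 32 kinesins coloured by subfamily. Kinesin SDs run from 0.03 for KIN7K to 0.33 for KIN14R and lie among those of other genes at the same level.

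Other genes of cell division were read on the same arrays, in lists drawn from gene symbols. Of 8 mitotic cyclin and cyclin-dependent kinase genes, 7 exceeded the ceiling on every array, against 81.3% of all genes. All 8 read lower on replicate 2 than the mean of the other arrays, against 58.0% of all genes, with a median of -0.22. Replicate 2 was itself lowest in 4 of the 8 and replicate 1 in the other 4, while replicate 3 was highest in 7. The order common among kinesins was found in 3. Over all genes, 36.2% were lowest on replicate 2, 49.9% were highest on replicate 3 and 23.8% had that order. The median difference of replicate 2 from replicate 1 alone was -0.02. LOC4327547, named CYCB1-1, a B-type cyclin that drives entry into mitosis, had the highest mean and read 10.11, 9.95 and 10.32 on replicates 1, 2 and 3. LOC4326914, which shares that name as a synonym, had the lowest and read 4.11, 4.18 and 4.83, below the ceiling on all arrays.

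For DNA replication, 20 of 21 genes exceeded the ceiling on every array, against 81.3% of all genes. All 21 read lower on replicate 2 than the mean of the other arrays, against 58.0% of all genes, with a median of -0.23. Replicate 2 was lowest in 16 of them, against 36.2% of all genes, and 14 had the order common among kinesins, against 23.8%. PCNA, the sliding clamp, had the highest mean and read 11.43, 11.25 and 11.32. MCM8, a relative of the replicative helicase subunits, had the lowest and read 3.79, 3.69 and 3.68. None of the mitosis or replication genes passed the variance test (lowest adjusted p = 0.94, limma). These lists and the kinesins were measured on the same 3 arrays, and how alike they are was not tested.

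Tubulin is the track on which kinesins walk. All 11 tubulin genes exceeded the ceiling on every array, against 81.3% of all genes. Their difference of replicate 2 had a median of -0.06 and a range from -0.22 to 0.10. On this measure 10 of 11 read lower on replicate 2, against 58.0% of all genes. Replicate 2 was lowest in 8, against 36.2% of all genes, and 4 had the order common among kinesins, against 23.8%. LOC4350197, named TUBA, an alpha-tubulin gene, had the highest mean and read 13.70, 13.51 and 13.59, and TUBG2, a gamma-tubulin gene of the complex that starts new microtubules, had the lowest and read 9.41, 9.36 and 9.74. The symbol patterns for microtubule-associated proteins matched 0 genes.

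**Figure D4:**
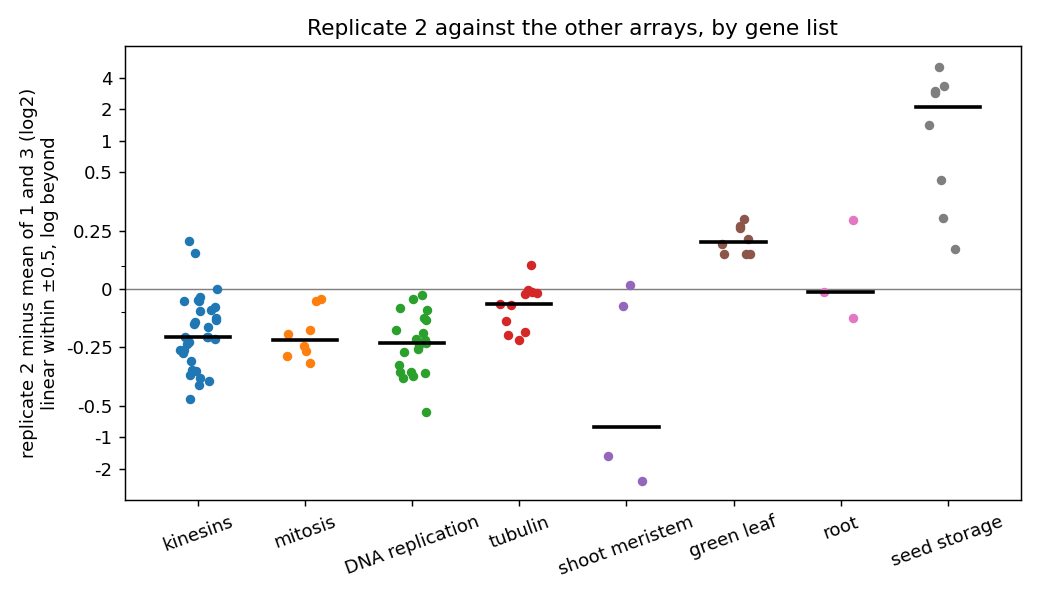
Difference of replicate 2 from the mean of replicates 1 and 3 in log2 units (vertical axis, linear within 0.5 of zero and logarithmic beyond) for each gene of the kinesins and of 7 other lists, with a black bar at each median. The medians are -0.21 for kinesins, -0.22 for mitosis, -0.23 for DNA replication, -0.06 for tubulin, -0.80 for shoot meristem, 0.20 for green leaf, -0.01 for root and 2.12 for seed storage genes, of which 6 of 8 lay below the background ceiling on both replicates 1 and 3. The root median is the value of LSI2, which lay below the ceiling on all arrays.

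Markers of tissues that a shoot-tip sample can hold were read on the same arrays. Of 4 KNOX genes of the shoot meristem, 2 exceeded the ceiling on every array, against 81.3% of all genes. OSH1 (LOC4333973), which marks cells of the indeterminate meristem, read 6.25, 3.73 and 6.47 on replicates 1, 2 and 3, below the ceiling on replicate 2, and its other probe set, an _x_at one, read 5.76, 4.44 and 5.76, below the ceiling on the same array. OSH71 (LOC4337701) read 6.66, 4.93 and 6.24, above the ceiling on replicate 2 by 0.05. OSH6 read 5.92, 5.85 and 5.76, and OSH43 lay below the ceiling on all arrays. The median level of this list was 6.09, 4.49 and 6.00. Thus OSH1 was at background in 1 of the 3 samples, while OSH6 was above it in all.

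Of 29 genes that matched the green leaf list, only 8 had a probe set. As deposited, these genes read higher on replicate 2 in all 8 cases, against 41.7% of all genes, by a median of 0.20. With every value under the ceiling raised to it, 7 were higher and 1 lower on replicate 2, with a median of 0.18. Of the 8, 7 exceeded the ceiling on every array, against 81.3% of all genes, and RBCS1 lay below it on all 3. Their median level was 12.67, 12.84 and 12.44 on replicates 1, 2 and 3. Among 8 seed storage genes, 1 exceeded the ceiling on every array, against 81.3% of all genes. Of the 8, 6 lay below it on both replicates 1 and 3, and 4 of these 6 exceeded it on replicate 2. Their median level was 3.86, 6.62 and 3.87. As deposited, all 8 read higher on replicate 2, against 41.7% of all genes, although 2 lay below the ceiling on all arrays. Once every value under the ceiling was raised to the ceiling, the median difference of replicate 2 was 0.97, with 6 of 8 higher there. The 4 genes above the ceiling on replicate 2 only are among these 6, and the like share over all genes was not counted.

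Root transporter genes did not differ in 1 direction on replicate 2. Of 3 genes, LSI1 read 8.84, 9.13 and 8.84 on replicates 1, 2 and 3 and NRAMP5 read 9.98, 9.87 and 10.02, both above the ceiling on every array, while LSI2 lay below it on all 3. The median difference of replicate 2 over this list was -0.01, with 2 of 3 genes lower, against 58.0% of all genes. That median is the value of LSI2 and thus lies in background, while LSI1 differed by 0.29 and NRAMP5 by -0.12. The part of these tissues in the kinesin values was not tested, and with replicate 2 left out all 32 kinesins lay above the ceiling on both other arrays.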

How the data were processed

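Expression was measured on 3 arrays of CK shoot samples, grouped by their titles. The authors deposited log2 values. The submitters' processing notes name RMA and Affymetrix Expression Console, without versions or settings, and no source used here gives the array's genome build. Background subtraction, quantile normalization and probe summaries are the steps of RMA, so differences in total RNA are removed and low values compressed. Precision is limited by the number of arrays. The labels call the samples biological replicates without naming plants or batches, so p-values measure only the spread between these samples.

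The table holds 57381 probe sets, of which 123 are controls. The platform annotation pairs 22436 with 1 gene. Names came from it and from RefSeq symbols and synonyms of assembly ASM3414082v1, matched by gene ID. Each gene was read from its probe set with the highest mean. Variances were tested with limma 3.58.1 in R 4.3.3 (a fit of the mean alone, eBayes with trend and robust options, an upper-tail F test on the prior degrees of freedom of the bulk, Benjamini-Hochberg at 0.05), tested on simulated data. The same fit gave the 95% intervals. Counts used Python 3.11.15. Members, lists and the replicates described were chosen with earlier results of these data known. Values were given in full for the highest and lowest mean, highest SD and largest difference of replicate 2 in each subfamily, for every gene of subfamilies of up to 3 genes, for genes not above the ceiling, and for probe sets that disagreed about it, and for further kinesins chosen after their values were seen. From the mitosis, DNA replication and tubulin lists, the highest and lowest means were named. Lists count only matched genes with a probe set, 8 of 11 for mitosis, 21 of 22 for DNA replication and 11 of 11 for tubulin. For tissue markers these were 4 of 5 for shoot meristem, 8 of 29 for green leaf, 3 of 5 for root and 8 of 9 for seed storage. A MADS-box gene and an aminopeptidase gene that share synonyms with list genes were dropped. Raising list values to the ceiling, and counting only genes above it, were added after the data were seen.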

Additional observations from a re-analysis of the deposited data

How the results depend on the processing

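Counts and medians of the kinesins kept their direction under every alternative run, and none moved by more than 1.5 times apart from the median difference of replicate 2 without replicate 3. The count above the ceiling ran from 28 of 31 genes without _x_at and _s_at probe sets, where KIN8B and KIN14K lay below it and KIN13B had no probe set, to 32 of 32 without replicate 2. It was 31 with the ceiling raised by 1 log2. With all 3 arrays kept, between 23 and 26 kinesins were lowest on replicate 2 and between 20 and 28 highest on replicate 3. The lowest of both came after quantile normalization. Without replicate 1, 30 of 32 read lower on replicate 2 than on replicate 3, against 11159 of 17905 genes. Without replicate 3, 26 read lower on replicate 2 than on replicate 1, against 8468 of 17905 genes. Without replicate 2, 29 read higher on replicate 3 than on replicate 1, against 11468 of 17905 genes. The median difference of replicate 2 ran from -0.26 to -0.12, both from leaving out a replicate, and the median SD from 0.09 without replicate 2 to 0.18 without replicate 1. The variance test called 0 kinesins under all 8 alternatives, also at an unadjusted p under 0.05. With 2 arrays left, an SD rests on a single difference. No paired analysis was possible because the samples form a single group. The planned count of promoters with the motif AACGG was not run, since no promoter sequence was used here. Depth does not apply to arrays, and signal near the ceiling, as for KIN7A, is limited by background.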
